A study of Mus musculus with 12 samples.

Results

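Transcripts of histone and DNA modifying enzymes were examined in mouse bone marrow-derived macrophages (BMDMs). The members were chosen by gene symbol: the numbered Hdac, Kat, Kdm, Setd, Sirt, Tet and Ezh genes, the Kmt2 and Dnmt genes, and Ep300, Crebbp, Whsc1 and Dot1l. The count table held 71 such symbols of 24421 in all, and 69 of them had a total of at least 10 counts over the 12 libraries. Kdm5d, a Y-linked H3K4 demethylase, had 0 counts and Tet1, a 5-methylcytosine oxidase, had 4, so both fell out. Uty, another Y-linked gene, was also at 0 counts, and the part of the sex of the mice in this was not tested. Of the 69 members, 66 passed the filter on low counts and were tested among 11468 genes. The other 3 were Dnmt3l (30 counts in all), Hdac11 (43) and Kdm4d (18). A member, Dnmt3aos, is an antisense transcript within Dnmt3a and not an enzyme.

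The macrophages were grown from the marrow of C57BL/6 mice with M-CSF at 100 ng/mL for 5 days, with a change of medium on day 3. They were exposed for 4 hours to I-BET151 (iBET, 5.0 µM), a small molecule that blocks the acetyl-lysine pocket of the BET bromodomain proteins, or to its solvent DMSO (5% by the labels). The labels give no DMSO content for the iBET cultures, so a match in solvent between the arms is not known. Each was combined with ovalbumin (Ova) or with ovalbumin bound by a polyclonal rabbit antibody, an immune complex (IC) that engages Fc gamma receptors. This gave DMSO Ova, DMSO IC, iBET Ova and iBET IC, with 3 libraries each, and every group had 1 library from each of mice A, B and C. By the labels the drug and stimulus were given together, while the study's methods put the drug first. No allele was altered in any group, and each library is a whole culture, so fewer cells of a type and less RNA per cell cannot be told apart.

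Counts per library totalled 7.55 to 17.4 M. In mouse A's DMSO Ova library the ribosomal precursor transcript Rn45s took 77.4% of the counts, against 1.41% to 7.83% in the other 11, and 1.77 M counts were left for other genes. That library lay above all the others for 15 of the 66 tested members (22.7%) and below all of them for 13 (19.7%), against 16.9% and 20.2% of all genes tested. All 11 macrophage markers listed were detected. Their summed level lay between 8978 and 10352 CPM (counts scaled by TMM-adjusted library size) in DMSO Ova and 10191 and 12129 in iBET Ova, which overlapped, and between 8838 and 10066 in DMSO IC and 10700 and 12098 in iBET IC, which did not. With iBET, 2 of the 11 were called higher in Ova and 3 in IC (17.1% and 19% of all genes tested were) and none lower. The part of these levels in the results on iBET was not tested. The 7 dendritic cell markers summed to at most 1.65 CPM. Of these, Zbtb46 was called higher with iBET in Ova (78 counts in all), and it may have passed the filter on low counts through libraries where it is high. The 8 neutrophil markers summed to between 10.3 and 56.3 CPM with ranges that overlapped between the 4 groups. All 4 mast cell or basophil markers (Cpa3, Mcpt8, Fcer1a and Ms4a2) were at 0 counts.

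Histone acetyltransferases add acetyl groups to lysines of histone tails, which BET proteins bind, and histone deacetylases and the NAD-dependent sirtuins remove acyl groups. Methyltransferases and demethylases write and erase lysine methylation, which marks active promoters and enhancers (H3K4), transcribed gene bodies (H3K36, H3K79) or repressed regions (H3K9, H3K27). DNA methyltransferases methylate cytosine and TET enzymes oxidise the product. In macrophages the H3K27 demethylase Kdm6b is known as an inducible gene of inflammatory stimulation.

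Promoter sequence was available in RefSeq (GRCm38.p6) for 56 of the 69 members. Those of Hdac9 and Kmt2c are shown as a CpG-poor and a CpG-rich example among members that moved with iBET, and they were chosen after the values and sequences were seen. Hdac9 encodes a class IIa deacetylase and lies on the minus strand of chromosome 12 (34047580 to 34917095, mm10), and Kmt2c encodes an H3K4 methyltransferase of enhancers and lies on the minus strand of chromosome 5 (25271798 to 25498783). Each window holds the 250 bases before an annotated start and no annotated exon, and is printed 5′ to 3′ on the gene's strand. Capitals mark matches, on either strand, to any of 7 motifs.
Hdac9, chr12:34917096-34917345: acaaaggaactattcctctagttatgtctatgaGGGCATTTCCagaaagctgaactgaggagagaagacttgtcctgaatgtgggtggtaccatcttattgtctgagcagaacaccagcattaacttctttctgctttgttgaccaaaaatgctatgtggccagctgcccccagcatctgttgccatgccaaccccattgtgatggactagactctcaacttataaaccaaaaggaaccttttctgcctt
Hdac9, chr12:34528890-34529139: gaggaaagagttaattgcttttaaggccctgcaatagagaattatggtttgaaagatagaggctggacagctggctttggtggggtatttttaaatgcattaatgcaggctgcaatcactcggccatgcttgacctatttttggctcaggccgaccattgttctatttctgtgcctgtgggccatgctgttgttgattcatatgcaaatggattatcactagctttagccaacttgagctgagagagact
Kmt2c, chr5:25498784-25499033: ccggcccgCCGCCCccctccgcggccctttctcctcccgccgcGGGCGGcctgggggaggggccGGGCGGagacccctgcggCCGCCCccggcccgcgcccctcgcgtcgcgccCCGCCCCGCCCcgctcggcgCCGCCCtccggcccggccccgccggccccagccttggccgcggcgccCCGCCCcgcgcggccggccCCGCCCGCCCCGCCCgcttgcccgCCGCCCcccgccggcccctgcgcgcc
The Hdac9 windows held 0 and 2 CpG dinucleotides (GC content 44.4% and 43.6%), and the Kmt2c window 48 (91.6%). The GC content was lower still in the Setd5 window (36.8%) and in the first of the Kdm4c windows (39.6%), both with 0 CpG. The median was 17 over the 81 starts of members and 6 over 32851 starts of all genes. The motifs searched were the E-box CACGTG (in 6.02% of all windows), AP-1 TGACTCA (4.46%), CRE TGACGTCA (1.55%), the kappaB motif, which is GGG, any 2 bases and then TTTCC (1.41%), CCAAT (33.8%), ETS CCGGAAG (6.91%) and the GC box GGGCGG (32.7%). The match in the first Hdac9 window is to the kappaB motif, and the 12 matches of Kmt2c are to the GC box, some overlapping each other.

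Levels were compared between genes per kb of annotated exon. In DMSO Ova the highest were Dnmt1, the maintenance DNA methyltransferase, at 25.3 ± 6.17 CPM per kb (mean ± SD, n = 3), Hdac1 (24.3 ± 2.44) and the actin histidine methyltransferase Setd3 (24.1 ± 5.44), which did not differ beyond their spread. The H3K79 methyltransferase Dot1l (19.8 ± 1.60) and Hdac2 (18.4 ± 0.432) followed. Of the tested members, the lowest was the mitochondrial and cytosolic desuccinylase Sirt5 (0.251 ± 0.146), and Kdm6b stood at 1.12 ± 0.315. The coactivator acetyltransferases Crebbp (14.3 ± 2.80) and Ep300 (13.9 ± 0.830) were level within their spread. These ranks depend on the length used: per kb of the longest transcript, Setd3 (47.6) and Hdac1 (41.2) came before Dnmt1 (31.8). They also draw on mouse A's DMSO Ova library, the one high in Rn45s. There Dnmt1 (235 CPM, at most 188 elsewhere) and Setd3 (183 CPM, at most 164 elsewhere) lay above every other library, while Hdac1 did not.

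IC against Ova in DMSO asked which of these transcripts differ with the immune complex. The Ova control held no antibody, so the part of Fc gamma receptors in a difference was not tested. Of the 66 tested members, 1 was called (adjusted p under 0.05 in edgeR's quasi-likelihood test over all genes), where 1.22% of all genes tested were called. It was Kdm6b, on the minus strand of chromosome 11 (69398508 to 69413675, mm10). Kdm6b was at 10.3, 6.82 and 6.22 CPM in DMSO Ova (mice A, B and C) and at 21.4, 22.4 and 14.3 CPM in DMSO IC. The groups did not overlap, and each mouse rose. The log2 fold change was 1.42 (SE 0.26, edgeR adjusted p 0.0234), or 2.68-fold. It was no longer called without mouse B's DMSO Ova library (adjusted p 0.151), mouse C's (0.114) or mouse B's DMSO IC library (0.0840). With mouse as a block the adjusted p was 0.000906. Kdm6b shares 286 exon bases with the antisense gene Kdm6bos, and the use of strand in counting was not stated, so its value is uncertain to that extent.

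With mouse as a block, 3 members were called, against 2.75% of all genes, and DESeq2 called 4 (3 higher and 1 lower), against 2.26%. Beside Kdm6b, the block fit called Dot1l and Tet2, the latter a 5-methylcytosine oxidase. Dot1l was at 160, 187 and 170 CPM in DMSO Ova and at 226, 228 and 230 CPM in DMSO IC, and the groups did not overlap. Its log2 fold change was 0.40 (SE 0.09, adjusted p 0.0551 without the block and 0.0317 with it). Tet2 was at 58.0, 55.0 and 54.1 CPM in DMSO Ova and at 81.6, 75.6 and 69.9 CPM in DMSO IC, again without overlap (log2 fold change 0.45, SE 0.12, adjusted p 0.102 without the block and 0.0435 with it). Both were higher with IC in 3 of 3 mice, and DESeq2 called them too. Its lower call was the acetyltransferase gene Ep300, at 212, 191 and 193 CPM in DMSO Ova and at 164, 164 and 155 CPM in DMSO IC, without overlap and lower in 3 of 3 mice. The log2 fold change of Ep300 was -0.30 (SE 0.08), with an adjusted p of 0.0352 in DESeq2 and, in edgeR, 0.125 without the block and 0.0874 with it. The median log2 fold change of the 66 members was -0.03, beside -0.01 over all genes tested.

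In iBET, 0 of the 66 members were called with IC in edgeR (6 at an unadjusted p under 0.05), where 0.349% of all genes were called. At that unadjusted threshold stood 7.5% of all genes. DESeq2 (0.871% of all genes called) and the edgeR fit with mouse as a block (0.741%) each called 1 member. In both fits this was Kdm6b. Kdm6b was at 5.79, 5.29 and 3.61 CPM in iBET Ova and at 13.8, 14.3 and 9.23 CPM in iBET IC, without overlap and higher in 3 of 3 mice. The log2 fold change was 1.34 (SE 0.26, edgeR adjusted p 0.0557 without the block and 0.00134 with it). The adjusted p fell under 0.05 without mouse A's DMSO Ova library (0.0282), mouse A's DMSO IC library (0.0412) or C (0.0365), or mouse C's iBET IC library (0.0365).

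The difference between arms, coded as the IC effect under iBET less the IC effect under DMSO, was called for 0 of 66 members and 0 of 11468 genes in edgeR. At an unadjusted p under 0.05 there were 2 members and 292 genes (2.55%), and DESeq2 called 0 members and 3 genes (0.0218%). For Kdm6b the difference was -0.08 (SE 0.37). Its level under iBET was lower with both stimuli, by -0.55 (SE 0.28, adjusted p 0.154) in Ova and -0.63 (SE 0.24, adjusted p 0.0586) in IC. With the block these passed (0.0178 and 0.00366), and without it the second passed when mouse A's DMSO Ova library (0.0349) or mouse C's DMSO IC library (0.0238) was left out. Each mouse showed the lower value in both.

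**Figure D1:**
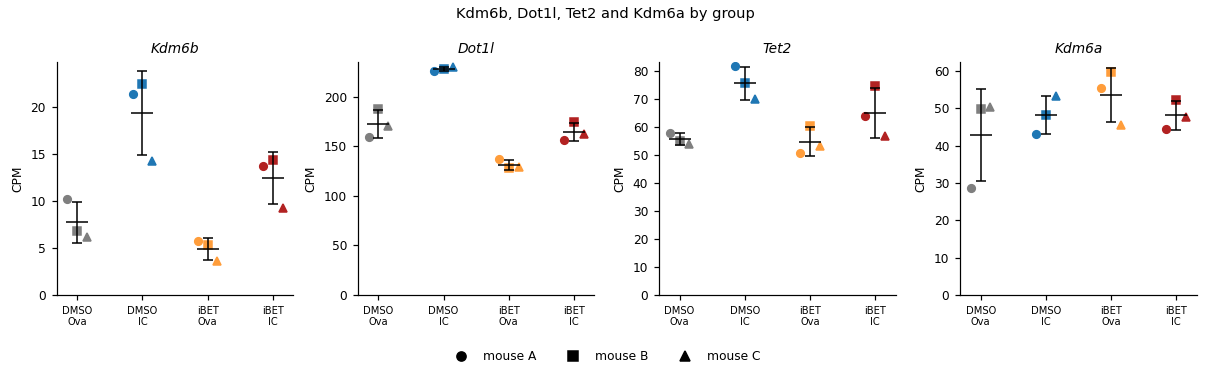
Levels in CPM (vertical axis, from 0) of Kdm6b, Dot1l, Tet2 and Kdm6a in the 4 groups, 1 point per library with its shape giving the mouse, and a bar for the mean ± SD. Kdm6b rises with IC in both drug arms, which in iBET passed the test with mouse as a block and not without it, while the related demethylase gene Kdm6a lies between 28.8 and 59.8 CPM in all 12 libraries.

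iBET against DMSO asked how these transcripts differ between the drug arms. With Ova, 20 of the 66 tested members were called, 11 higher and 9 lower, where the share over all genes tested was 31.3% (17.1% higher and 14.2% lower). With IC, 22 were called, 11 higher and 11 lower, where 34.8% of all genes were (19% higher and 15.8% lower). With mouse as a block the counts were 28 and 27, against 38.3% and 42.1% of all genes. The members' shares are close to these backgrounds, so the counts are not a result about the members. The median log2 fold change was 0.00 with Ova and -0.13 with IC, beside 0.02 and 0.00 over all genes. Both stimuli called 17 members, 8 higher and 9 lower, and none with opposite signs. The share of all genes called with both stimuli is not given here, so this count too is not read as a result about the members. The 6 iBET and 6 DMSO libraries did not overlap in CPM for 18 members (9 higher and 9 lower), against 27.6% of all genes tested. These 2 contrasts share no library, but mice A, B and C gave libraries to both.

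**Figure D2:**
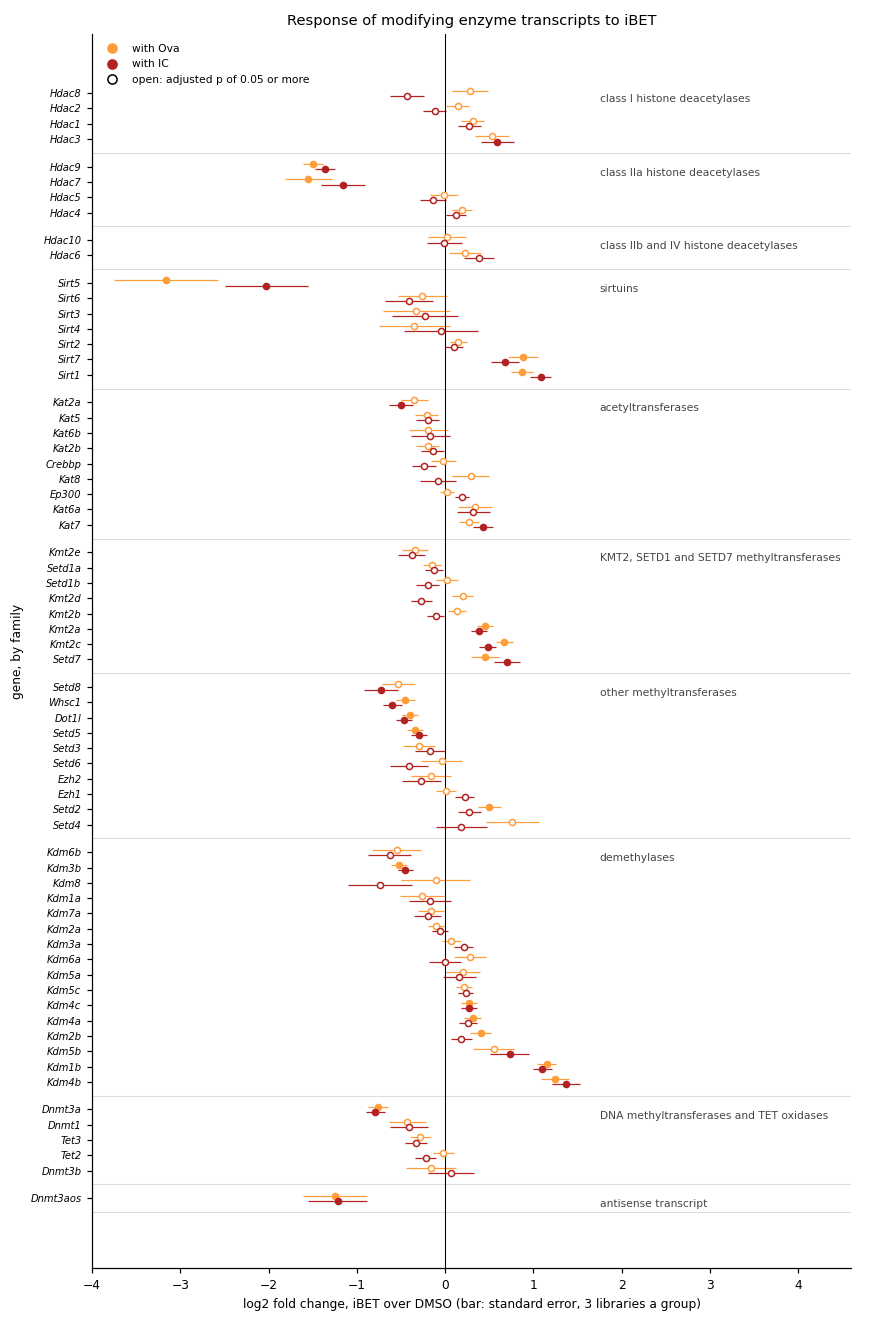
Log2 fold change of iBET over DMSO (horizontal axis) for the 66 tested members, grouped by family and ordered by their mean, with Ova in orange and IC in red, bars for the standard error and filled points for an adjusted p under 0.05. Sirt5, Hdac9 and Hdac7 lie farthest to the left and Kdm4b and Kdm1b farthest to the right, and most of the other members lie within 1 log2 unit of 0. Sirt5 passed the filter on low counts through its DMSO libraries, where it is high.

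Among the deacetylases, the class IIa genes Hdac9 and Hdac7 fell with both stimuli. Class IIa enzymes bind MEF2 factors and have little deacetylase activity of their own. Hdac9 was at 56.0, 53.4 and 65.5 CPM in DMSO Ova and at 20.7, 20.1 and 21.3 CPM in iBET Ova (mice A, B and C). With IC it was at 55.5, 51.3 and 54.0 CPM in DMSO and at 19.9, 19.3 and 23.4 CPM in iBET. Every iBET library lay under every DMSO library. The log2 fold change was -1.5 (SE 0.11, edgeR adjusted p 2.48e-06) with Ova and -1.36 (SE 0.11, adjusted p 3.37e-06) with IC. Its CpG-poor promoter windows are those printed above.

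Hdac7, on chromosome 15, was lower expressed. It was at 6.16, 6.59 and 5.14 CPM in DMSO Ova and at 2.32, 1.54 and 2.14 CPM in iBET Ova. With IC it was at 6.73, 7.04 and 4.67 CPM in DMSO and at 2.03, 3.29 and 3.12 CPM in iBET. The drug arms again did not overlap, and the log2 fold change was -1.55 (SE 0.27, adjusted p 0.00106) and -1.16 (SE 0.25, adjusted p 0.00371). It shares 29 exon bases with Slc48a1 on the opposite strand, whose own log2 fold changes were -0.01 and 0.10. The other class IIa genes, Hdac4 (0.19 with Ova and 0.12 with IC) and Hdac5 (-0.01 and -0.14), did not pass the test.

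Of the class I genes, Hdac1 and Hdac2 encode catalytic subunits of the SIN3, NuRD and CoREST corepressor complexes. Hdac1 was at 75.0, 85.0 and 91.7 CPM in DMSO Ova, at 97.1, 97.3 and 119 in iBET Ova, at 72.1, 82.4 and 95.0 in DMSO IC and at 93.6, 99.5 and 107 in iBET IC. Its log2 fold change was 0.31 with Ova (SE 0.13, adjusted p 0.0852) and 0.27 with IC (SE 0.13, adjusted p 0.119), which passed with mouse as a block (0.0127 and 0.0202) and, with IC, without mouse C's DMSO IC library (0.0498). Hdac2 was at 74.4 to 102 CPM in DMSO and 74.8 to 102 CPM in iBET, ranges that overlap almost wholly. Hdac3, the catalytic subunit of NCoR complexes, was called with IC (0.59, SE 0.19, adjusted p 0.0296) but not without mouse A's DMSO IC library (0.121) or mouse A's iBET IC library (0.0542), B (0.0869) or C (0.0674). With Ova its value was 0.53 (SE 0.19, adjusted p 0.0569, 0.0173 with the block and 0.0463 without mouse A's DMSO IC library). In mouse A's DMSO Ova library Hdac3 stood at 18.0 CPM, against 34.7 and 34.2 CPM in mice B and C.

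The sirtuins moved in both directions. Sirt1, a nuclear deacetylase, was at 41.1, 53.7 and 55.8 CPM in DMSO Ova and at 101, 89.7 and 88.9 CPM in iBET Ova. With IC it was at 42.8, 49.6 and 47.5 CPM in DMSO and at 88.8, 100.2 and 107 CPM in iBET, so that the drug arms did not overlap. It rose by 0.87 (SE 0.12, edgeR adjusted p 0.000235) with Ova and by 1.08 (SE 0.12, adjusted p 3.88e-05) with IC on the log2 scale. Sirt7, a nucleolar deacetylase of H3K18, was at 13.9, 22.7 and 20.9 CPM in DMSO Ova, 36.7, 36.8 and 36.7 in iBET Ova, 23.8, 22.9 and 18.6 in DMSO IC and 32.5, 41.0 and 30.8 in iBET IC. It rose by 0.88 (SE 0.17, adjusted p 0.00178) and 0.68 (SE 0.16, adjusted p 0.00687). Sirt7 shares 178 exon bases on the same strand with its neighbours Mafg and Mir6936. Mafg itself did not pass the test (0.18 with Ova and 0.03 with IC).

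Sirt5 had the largest fitted fall of any tested member but few counts, 140 over the 12 libraries. Its counts were 1, 25 and 26 in DMSO Ova (mice A, B and C), 3, 0 and 3 in iBET Ova, 20, 22 and 22 in DMSO IC and 7, 6 and 5 in iBET IC. The single count in mouse A's DMSO Ova library stands at 0.514 CPM, within the range of the iBET libraries (0 to 0.599 CPM), and every other DMSO library lies above that range. The fitted log2 fold change was -3.16 (SE 0.59, edgeR adjusted p 0.00148) with Ova and -2.03 (SE 0.47, adjusted p 0.00522) with IC. The size with Ova rests on 6 counts in the iBET libraries. No iBET library held more than 7 counts, so Sirt5 passed the filter on low counts through the DMSO libraries, where it is high. Its rank as the largest fall is therefore not read as a result. Sirt2, Sirt3, Sirt4 and Sirt6 did not pass the test, with values from -0.35 to 0.15 with Ova and from -0.41 to 0.10 with IC.

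**Figure D3:**
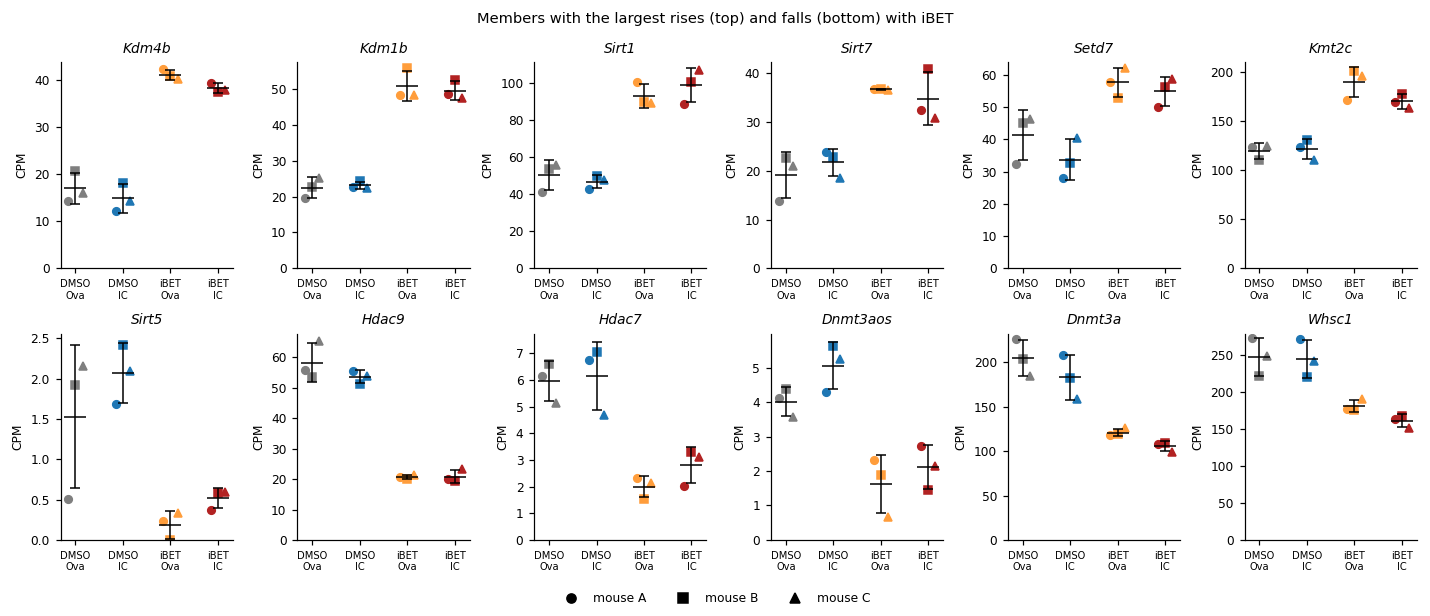
Levels in CPM (vertical axes, from 0) of the 6 members with the largest rises (top) and the 6 with the largest falls (bottom) among those called with both stimuli, 1 point per library with its shape giving the mouse, and bars for the mean ± SD. The drug arms separate in every panel except that of Sirt5, where mouse A's DMSO Ova library lies at 0.514 CPM among the iBET libraries. Sirt5 passed the filter on low counts through its DMSO libraries.

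Of the 9 acetyltransferases, 0 were called with Ova (2 at an unadjusted p under 0.05) and 2 with IC, where 31.3% and 34.8% of all genes were called. No test set the family against other genes. Ep300, whose DMSO levels are given above, was at 207, 198 and 197 CPM in iBET Ova and at 179, 178 and 191 CPM in iBET IC. Its log2 fold change with iBET was 0.02 (SE 0.08) with Ova and 0.19 (SE 0.08, adjusted p 0.101) with IC. Crebbp was at 237, 169 and 175 CPM in DMSO Ova, 175, 190 and 206 in iBET Ova, 219, 184 and 165 in DMSO IC and 166, 167 and 148 in iBET IC. Its values were -0.02 (SE 0.14) and -0.24 (SE 0.14, adjusted p 0.215), and the drug arms overlapped for both genes. With IC, Kat7, the catalytic subunit of HBO1 complexes, rose by 0.43 (SE 0.11, adjusted p 0.0110), and Kat2a, the GCN5 subunit of SAGA, fell by 0.50 (SE 0.14, adjusted p 0.0175) on the log2 scale. Kat7 lost its call without mouse A's DMSO IC library (0.0632) or mouse C's iBET IC library (0.0503), and Kat2a without mouse B's DMSO IC library (0.0738) or mouse A's iBET IC library (0.0718). With Ova, Kat7 passed with the block (0.04999, at the edge of the threshold) and not without it (0.0986).

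Of the 8 genes of the KMT2, SETD1 and SETD7 group, which holds the main H3K4 methyltransferases, 3 rose with both stimuli (37.5%, where 17.1% of all genes were called higher with Ova and 19% with IC) and none was called lower. The median log2 fold change of the 8 was 0.17 with Ova and -0.12 with IC. They were not tested as a set against other genes, so this share is not read as a result about the group. Kmt2c was at 123, 110 and 125 CPM in DMSO Ova, 172, 201 and 196 in iBET Ova, 124, 131 and 110 in DMSO IC and 169, 177 and 163 in iBET IC. The arms did not overlap, and the log2 fold change was 0.67 (SE 0.10, edgeR adjusted p 0.000390) with Ova and 0.48 (SE 0.10, adjusted p 0.00275) with IC. Kmt2a, the MLL1 gene, rose by 0.45 (SE 0.09, adjusted p 0.00268) and 0.38 (SE 0.09, adjusted p 0.00586). Kmt2c shares 274 exon bases with a gene on the opposite strand and Kmt2a 378, so their values are uncertain to that extent. Setd7, a monomethyltransferase of H3K4 and other proteins, was at 32.4, 45.2 and 46.3 CPM in DMSO Ova, 57.9, 52.9 and 62.2 in iBET Ova, 28.1, 32.6 and 40.5 in DMSO IC and 49.9, 56.2 and 58.7 in iBET IC. Its rise was 0.45 (SE 0.16, adjusted p 0.0427) with Ova and 0.70 (SE 0.15, adjusted p 0.00374) with IC. With Ova the call of Setd7 held in 3 of the 12 fits without 1 library, and without mouse A's DMSO Ova library its log2 fold change was 0.28 (adjusted p 0.185). Kmt2e, a family member without known methyltransferase activity, was at -0.34 and -0.38 (adjusted p 0.0942 and 0.0583) and passed with the block (0.0296 and 0.0185). It also passed in 1 and 2 of the 12 fits without 1 library, down to 0.0223 without mouse A's DMSO IC library and 0.0242 without mouse A's DMSO Ova library.

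Of the 10 other methyltransferases, 3 fell and 1 rose with Ova, and 4 fell with IC, where 14.2% and 15.8% of all genes were called lower. The families were not tested against each other. Whsc1 (Nsd2 in GENCODE), an H3K36 dimethyltransferase, was at 272, 221 and 247 CPM in DMSO Ova, 176, 175 and 190 in iBET Ova, 270, 220 and 242 in DMSO IC and 163, 168 and 151 in iBET IC. The arms did not overlap, and the log2 fold change was -0.45 (SE 0.11, adjusted p 0.00721) with Ova and -0.60 (SE 0.11, adjusted p 0.000954) with IC. Dot1l fell by 0.40 (SE 0.09, adjusted p 0.00516) and 0.47 (SE 0.09, adjusted p 0.00145), and Setd5 by 0.34 (SE 0.09, adjusted p 0.0134) and 0.30 (SE 0.09, adjusted p 0.0190). Setd5 lost its call with Ova without mouse A's iBET Ova library (0.0597), and with IC without mouse A's iBET IC library (0.0636) or C (0.0739). Setd8 (Kmt5a in GENCODE), the H4K20 monomethyltransferase, fell by 0.73 with IC (SE 0.19, adjusted p 0.00987), or by 0.48 without mouse A's DMSO IC library, where it was still called, and was at -0.53 with Ova (SE 0.19, adjusted p 0.0541, 0.0270 with the block and down to 0.00430 in the 2 fits without 1 library that called it, this one without mouse A's DMSO IC library). Setd2, the enzyme of H3K36 trimethylation, rose by 0.50 with Ova (SE 0.13, adjusted p 0.0109) and was at 0.27 with IC (SE 0.13, adjusted p 0.122, 0.0470 with the block and 0.0279 without mouse A's DMSO IC library).

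Ezh1 and Ezh2, the catalytic subunits of Polycomb repressive complex 2, were not called. Ezh2 was at 52.9, 31.1 and 44.0 CPM in DMSO Ova, 27.5, 36.7 and 47.7 in iBET Ova, 40.6, 27.9 and 40.9 in DMSO IC and 29.2, 28.9 and 32.8 in iBET IC. Its drug arms overlapped, with log2 fold changes of -0.16 (SE 0.23) and -0.27 (SE 0.22). Setd8 and Ezh2 are known to be higher in cycling cells. Of 16 S phase genes listed, 7 were lower with iBET with each stimulus (43.8%, against 14.2% of all genes with Ova and 15.8% with IC) and none higher (median log2 fold change -0.74 in both). Their summed level was 1261 to 1776 CPM in DMSO Ova, 950 to 1455 in iBET Ova, 1121 to 1794 in DMSO IC and 933 to 1382 in iBET IC. Of 14 G2 and mitosis genes, 1 was called with Ova and 0 with IC, the call being lower (medians -0.86 and -0.65). The part of cell cycle in the results on Setd8, Ezh2 and Dnmt1 was not tested.

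Among the demethylases, Kdm4b and Kdm1b had the largest rises of the members called with both stimuli. Kdm4b, an H3K9 and H3K36 demethylase on chromosome 17, was at 14.4, 20.6 and 16.0 CPM in DMSO Ova and at 42.4, 40.8 and 40.3 CPM in iBET Ova. With IC it was at 12.1, 18.2 and 14.4 CPM in DMSO and at 39.5, 37.4 and 38.0 CPM in iBET. The rise was 1.24 (SE 0.16, edgeR adjusted p 0.000105) with Ova and 1.37 (SE 0.16, adjusted p 3.95e-05) with IC, or 2.36-fold and 2.58-fold. Kdm1b, the flavin-dependent H3K4 demethylase LSD2 on chromosome 13, was at 19.5, 22.7 and 25.3 CPM in DMSO Ova, 48.3, 55.7 and 48.4 in iBET Ova, 22.7, 24.2 and 22.5 in DMSO IC and 48.7, 52.4 and 47.3 in iBET IC. The rise was 1.15 (SE 0.11, adjusted p 1.63e-05) and 1.10 (SE 0.11, adjusted p 1.59e-05), and neither gene's drug arms overlapped. Kdm1b shares 505 exon bases with Dek on the opposite strand, which was at -0.37 and -0.28 and did not pass the test.

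Smaller changes were seen in 5 other demethylase genes. Kdm3b, an H3K9 demethylase, fell by 0.52 (SE 0.09, adjusted p 0.000676) with Ova and 0.45 (SE 0.08, adjusted p 0.00149) with IC. Its value is uncertain, since 3468 of its exon bases are shared with Gm26538 on the other strand. Kdm4c rose by 0.27 with both stimuli (SE 0.09, adjusted p 0.0363 and 0.0299), and 7 and 4 of the 12 single-library omissions ended these calls, up to 0.131 without mouse A's DMSO Ova library and 0.122 without mouse A's DMSO IC library. With Ova, Kdm2b rose by 0.40 (SE 0.12, adjusted p 0.0274) and Kdm4a by 0.31 (SE 0.10, adjusted p 0.0278), calls ended by 5 and 6 omissions, up to 0.106 and 0.0915, both without mouse C's DMSO Ova library. Kdm2b shares 826 exon bases with A930024E05Rik and Rnf34 on the opposite strand. Rnf34 was itself called higher, by 0.39 with Ova (edgeR adjusted p 0.00880) and 0.31 with IC (0.0212). The use of strand in counting was not stated, so the value of Kdm2b is uncertain to that extent. With IC, Kdm5b rose by 0.73 (SE 0.22, adjusted p 0.0251), ended by 4 omissions, up to 0.0811 without mouse B's iBET IC library. Kdm5b was at 0.55 with Ova (adjusted p 0.0910, 0.00777 with the block and 0.0437 without mouse C's iBET Ova library). Kdm1a, the LSD1 gene, was at -0.26 and -0.17 and did not pass the test.

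Of the DNA methylation enzymes, Dnmt3a, a de novo methyltransferase, fell. It was at 226, 204 and 185 CPM in DMSO Ova and at 118, 119 and 126 CPM in iBET Ova. With IC it was at 208, 182 and 159 CPM in DMSO and at 108, 109 and 99.5 CPM in iBET, so the arms did not overlap. The log2 fold change was -0.76 (SE 0.11, edgeR adjusted p 0.000347) and -0.79 (SE 0.11, adjusted p 0.000206). Dnmt3aos, on the opposite strand and sharing 133 exon bases with Dnmt3a, had counts of 8, 57 and 43 in DMSO Ova, 30, 17 and 6 in iBET Ova, 51, 51 and 55 in DMSO IC and 51, 15 and 18 in iBET IC. In CPM its arms did not overlap either (3.56 to 5.61 in DMSO and 0.677 to 2.72 in iBET). It fell by 1.25 (SE 0.36, adjusted p 0.0201) and 1.22 (SE 0.33, adjusted p 0.0130), calls lost without mouse B's DMSO Ova library (0.0798) and without mouse B's iBET IC library (0.0560), and reads of the pair cannot be told apart unless strand was used. Dnmt1 was at -0.43 and -0.41 (SE 0.21 both, adjusted p 0.146 and 0.158). Tet3 was at -0.28 and -0.33 (adjusted p 0.0969 and 0.0526) and passed with the block (0.0475 and 0.0222). It also passed in 1 and 4 of the 12 fits without 1 library, in both cases with the lowest value without mouse A's DMSO Ova library (0.0366 and 0.0337).

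The balance within pairs of related enzymes was described as the log2 ratio of their CPM per kb in each library, with no test, for 16 pairs. In 3 of them the 6 iBET and 6 DMSO libraries did not overlap. Of single genes tested, 27.6% did not overlap in CPM, and no share is given for ratios of other gene pairs. The count is therefore not read as a result about these pairs. The ratio Sirt1 over Sirt2 was -0.06 ± 0.14 in DMSO and 0.80 ± 0.19 in iBET (mean ± SD over 6 libraries, 2 from each mouse). Kdm3a over Kdm3b changed from -0.21 ± 0.13 to 0.40 ± 0.12, and Kmt2c over Kmt2d from -0.88 ± 0.18 to -0.27 ± 0.07. Sirt1, Kmt2c and Kdm3b were called with both stimuli, and their partners Sirt2, Kmt2d and Kdm3a with neither. Kdm6a over Kdm6b was 2.19 ± 0.84 in DMSO Ova and 1.07 ± 0.49 in DMSO IC, ranges that overlapped, and 3.20 ± 0.20 in iBET Ova and 1.71 ± 0.35 in iBET IC, which did not (n = 3). The overlap in DMSO rested on mouse A's DMSO Ova library, the one high in Rn45s, at 1.22. Mice B and C stood at 2.60 and 2.75 in DMSO Ova, above the DMSO IC range of 0.74 to 1.63. Ep300 over Crebbp (-0.16 ± 0.22 in DMSO and 0.06 ± 0.15 in iBET), Ezh1 over Ezh2 (0.13 ± 0.33 and 0.46 ± 0.39) and Hdac1 over Hdac2 (0.38 ± 0.29 and 0.66 ± 0.16) overlapped.

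**Figure D4:**
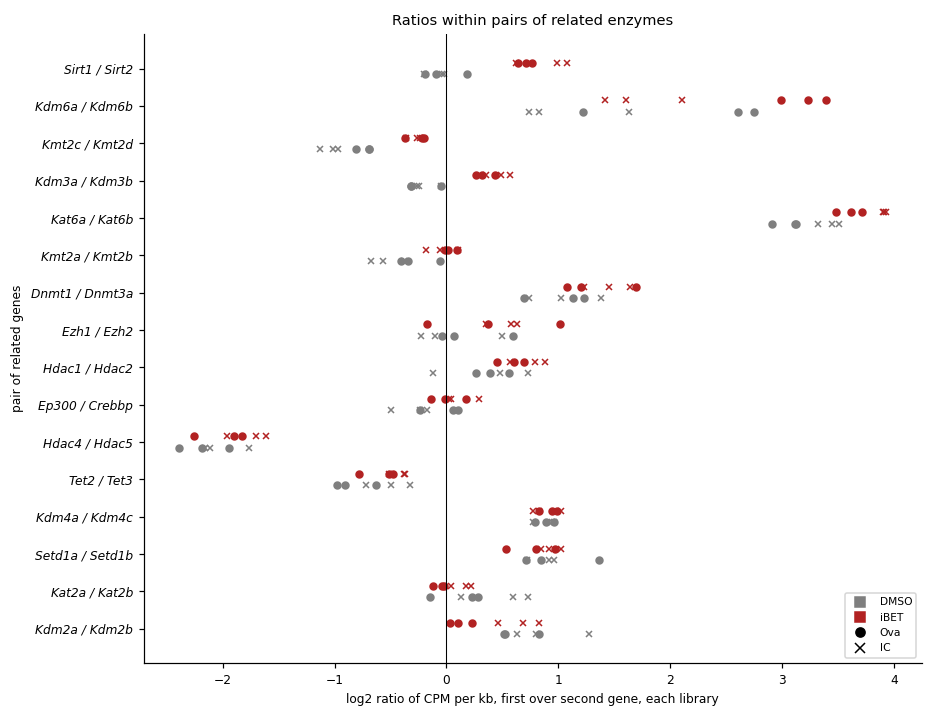
Log2 ratio of CPM per kb of exon (horizontal axis) for 16 pairs of related genes, 1 point per library, DMSO in grey and iBET in red, circles for Ova and crosses for IC. The arms are apart for Sirt1 over Sirt2, Kmt2c over Kmt2d and Kdm3a over Kdm3b. The ratio Kdm6a over Kdm6b is set apart by stimulus in the iBET arm and, but for mouse A's DMSO Ova library, in the DMSO arm.

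Partners of these enzymes and modifying enzymes outside the symbol rule were taken from 7 lists with 149 genes in the table, 144 of them tested. With Ova, 58 were called (24 higher and 34 lower), and with IC 59 (22 higher and 37 lower), where 31.3% and 34.8% of all genes were called. Their median log2 fold changes were -0.03 and -0.09. The largest rises among those called with both stimuli were in Setmar, a SET domain methyltransferase gene (1.60 with Ova and 1.23 with IC), Jade3, a scaffold of HBO1 complexes (1.20 and 1.44), and Trrap, the scaffold of SAGA and NuA4 (1.10 and 1.07). Setmar had a low level, with means of 0.951 CPM in DMSO Ova, 2.84 in iBET Ova, 0.893 in DMSO IC and 2.12 in iBET IC (SE 0.31 with Ova and 0.30 with IC). At such DMSO levels Setmar may have passed the filter on low counts through the iBET libraries, where it is high. Its rank is therefore not read as a result. The largest falls were in the Polycomb accessory subunit Phf19 (-2.22 and -2.10), the NuA4 subunit Dmap1 (-2.14 and -2.03) and Jade2 (-2.06 and -1.91). The related scaffolds Jade2 and Jade3 thus moved in opposite directions, Jade2 from a mean of 45.2 to 10.6 CPM and Jade3 from 14 to 31.6 CPM with Ova. Of the 14 COMPASS partners of the KMT2 and SETD1 enzymes, 1 rose and 5 fell with each stimulus, where 14.2% and 15.8% of all genes were called lower. Of 30 tested partners of HDAC corepressor complexes, 3 rose with each stimulus, and 7 fell with Ova and 8 with IC. With IC against Ova, 1 of the 144 was called in each drug arm, and 6 in DMSO with mouse as a block, where 1.22% (DMSO), 0.349% (iBET) and 2.75% (DMSO with the block) of all genes were called.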

How the data were processed

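RNA from 12 BMDM cultures was sequenced as stranded total RNA. Per the labels and methods, the authors trimmed reads with Trim Galore, aligned them to mm10 with HISAT2 and deposited counts per gene symbol from featureCounts. The annotation, use of strand and treatment of multi-mapped reads are not given in the sources used here. The deposited normalized signal equalled the counts divided by a median-of-ratios size factor (largest relative gap 6.55e-15) and served 1 alternative.

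The test was that of edgeR 4.0.16 in R 4.3.3, with TMM, filterByExpr, a robust quasi-likelihood fit with 1 term for each of 4 groups, 5 contrasts and two-sided p-values adjusted by Benjamini-Hochberg over 11468 genes. SE was taken as |log2 fold change| / square root of F. Positions, lengths and overlaps come from GENCODE vM21 (all 69 members matched, 2 through a synonym). Of the 69 members, 26 share exon bases with a gene on the opposite strand and 5 with one on the same strand. Not every overlap is given with its gene. Among called members without it are Setd7 (131 bases on the opposite strand), Sirt1 (65) and Whsc1 (60). The scripts were tested on simulated data. A first criterion, on the share of changed genes called, was missed and dropped; those on sign, bias and false calls were met.

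Libraries were paired by mouse as the labels give it. Deviations from group means correlated with a median of 0.26 (range -0.07 to 0.54) over 18 same-mouse pairs and -0.13 over 36 pairs of different mice. Deviations from a group's mean cancel within that group. The value for different mice is thus tied to that for same-mouse pairs and adds no separate support for the pairing. The paired fit is an alternative.

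Members called in each contrast are named, with library values for the 6 largest rises and falls with iBET, members called with IC, and Kdm6b, Ezh2, Hdac1, Ep300 and Crebbp. Members and lists were chosen with earlier results of these data known. Motifs were chosen after sequences were seen. Alternatives used DESeq2 1.42.0, sva 3.50.0 and limma 3.58.1.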

Additional observations from a re-analysis of the deposited data

Results flagged for a closer look

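For Hdac8, a class I deacetylase gene on the X chromosome, all 3 mice rose with IC in DMSO (log2 fold change 0.30) and all 3 fell in iBET (-0.42). Equally, all 3 rose with iBET in Ova (0.28) and fell in IC (-0.43). The interaction was -0.71 (edgeR unadjusted p 0.0259, adjusted p 1.00), so the difference did not pass the correction. Hdac8 had between 5 and 64 counts per library. For Kmt2b, an H3K4 methyltransferase gene, all 3 mice rose with IC in DMSO (0.14) and fell in iBET (-0.10), with an interaction of -0.24 (edgeR unadjusted p 0.115, adjusted p 1.00).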

How the results depend on the processing

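Of the members with IC in DMSO, 1 was called. The count was 4 in DESeq2, 3 in edgeR and 4 in DESeq2 when each fit had the mouse block, 5 with 1 surrogate variable, and 0 with the compared groups alone, when mouse B or mouse C was left out, or at an adjusted p under 0.01. It was 0 to 1 without 1 library. With IC in iBET, 0 were called, against 1 in DESeq2, with DESeq2 size factors, with no filter beyond a total of 10, with the block, with the surrogate variable, with the compared groups alone, without Rn45s and with the block and no DMSO Ova library from mouse A (both of these chosen after seeing the data). It was 3 in DESeq2 with the block, 2 without mouse A, and 0 to 1 without 1 library. With iBET the 20 members called in Ova became 25 when mouse A was left out, 8 for mouse B, 10 for mouse C and 13 at an adjusted p under 0.01, and 16 to 23 without 1 library. The 22 in IC became 21 when mouse A was left out, 9 for mouse B, 13 for mouse C and 15 at an adjusted p under 0.01, and 17 to 25 without 1 library. With 1 surrogate variable the counts were 29 in Ova and 32 in IC. With mouse as a block these counts were 28 and 27, and no member called without the block lost its call in edgeR. The 7 lists held 1 call with IC in DMSO, and 6 in DESeq2 and with the block. The share of all genes called is given above for DESeq2 with IC and for edgeR with the block, and not for the other settings. The changes in count are therefore not read as a result about the members or lists, and their causes were not tested. No called member changed direction under any alternative. Depth limits Sirt5, Dnmt3aos and Hdac7, with 140, 402 and 514 counts in all.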
